A study of Mus musculus with 66 samples.

Results

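The 10 genes described here take part in or control the making or conversion of steroid hormones, most of them in Leydig cells. These are the hormone-producing cells that lie between the seminiferous tubules of the testis. The genes were chosen by name: Scarb1, Star, Cyp11a1, Hsd3b1, Hsd3b6, Cyp17a1, Hsd17b1, Hsd17b3, Srd5a1 and Lhcgr. Every probe set whose array annotation named 1 of them and no other gene was taken, which gave 14 of the 36899 probe sets on the arrays. These 14 probe sets covered 8 of the 10 genes, out of 15964 genes that some probe set named alone, Star with 4, Scarb1, Hsd3b1 and Cyp17a1 with 2 each, and the other 4 genes with 1 each. No probe set of the annotation named Lhcgr, the receptor for luteinizing hormone, or Srd5a1, a steroid 5-alpha-reductase that turns testosterone into dihydrotestosterone, and both are absent from the values below. The measured values did not enter the choice of probe sets, although the genes were proposed with earlier results of these data known.

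The study followed whole testes of BL/6-129 mice through postnatal development on oligonucleotide expression arrays. Total RNA was taken at 11 ages (days 0, 3, 6, 8, 10, 14, 18, 20, 30, 35 and 56 after birth), with 2 numbered samples at each age, and each sample had 1 array of each of 3 types, A, B and C, 66 arrays in all. All animals shared that background, and the labels gave no mutation, transgene or treatment. The labels did not say whether the 2 samples of an age were separate animals, litters or pools, so the p-values below measure only the spread between these samples. For tests, the ages were joined into 4 stages, newborn (days 0 and 3, n = 4), infant (days 6, 8 and 10, n = 6), juvenile (days 14, 18 and 20, n = 6) and adult (days 30, 35 and 56, n = 6). Signals had been scaled on every array to the same mean of 125, so a signal is a share of the RNA of the whole testis. In such RNA, fewer Leydig cells and less RNA per Leydig cell cannot be told apart.

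Leydig cells arise in successive populations. In the mouse, fetal Leydig cells are active at birth and become fewer in the first weeks, while adult Leydig cells develop from spindle-shaped precursors before puberty. Cholesterol is taken up at the cell surface and carried into the mitochondrion, where its side chain is cut off to give pregnenolone. A 3-beta-hydroxysteroid dehydrogenase, a 17-alpha-hydroxylase and a 17-beta-hydroxysteroid dehydrogenase then lead to testosterone. Mouse fetal Leydig cells largely lack the last enzyme, and in the fetal mouse testis the Sertoli cells, the nurse cells inside the tubules, convert androstenedione to testosterone.

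Over the probe sets tested, the correlation of the log2 signals of the 2 samples of an age was lowest on day 0 for types A (0.885) and B (0.815) and on day 3 for type C (0.809), and highest on days 30 or 35 (0.950 to 0.976). On day 20 it was 0.891 for type A, 0.825 for type B and 0.888 for type C. Markers of the tubule cells changed over this time as well. The summed signal of 9 spermatid markers was 35792 to 60060 in adult testes, against 279 to 386 in juvenile testes. The summed signal of 15 Sertoli markers was 4929 to 5528 in adult testes, against 9818 to 13131 in newborn testes, and none of these lists had a marker at 0. The part of these shifts in the results for the steroid genes was not tested.

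Of the 14 probe sets, 13 had signals of 50 or more on 2 or more of their 22 arrays and entered the fit. The exception was 161721_f_at of Cyp17a1, whose signal was at most 29.6 on any array. In the F-test over the 11 days (limma), 10 of the 13 changed with age at an adjusted p under 0.05, against 50.5% of all 22191 probe sets tested. Those that missed it were 3 of the 4 Star probe sets, 163993_at (adjusted p = 0.186), 92213_at (0.107) and 161784_f_at (0.513). Hsd17b1 had the smallest adjusted p of the 13 (2.83e-09).

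**Figure D1:**
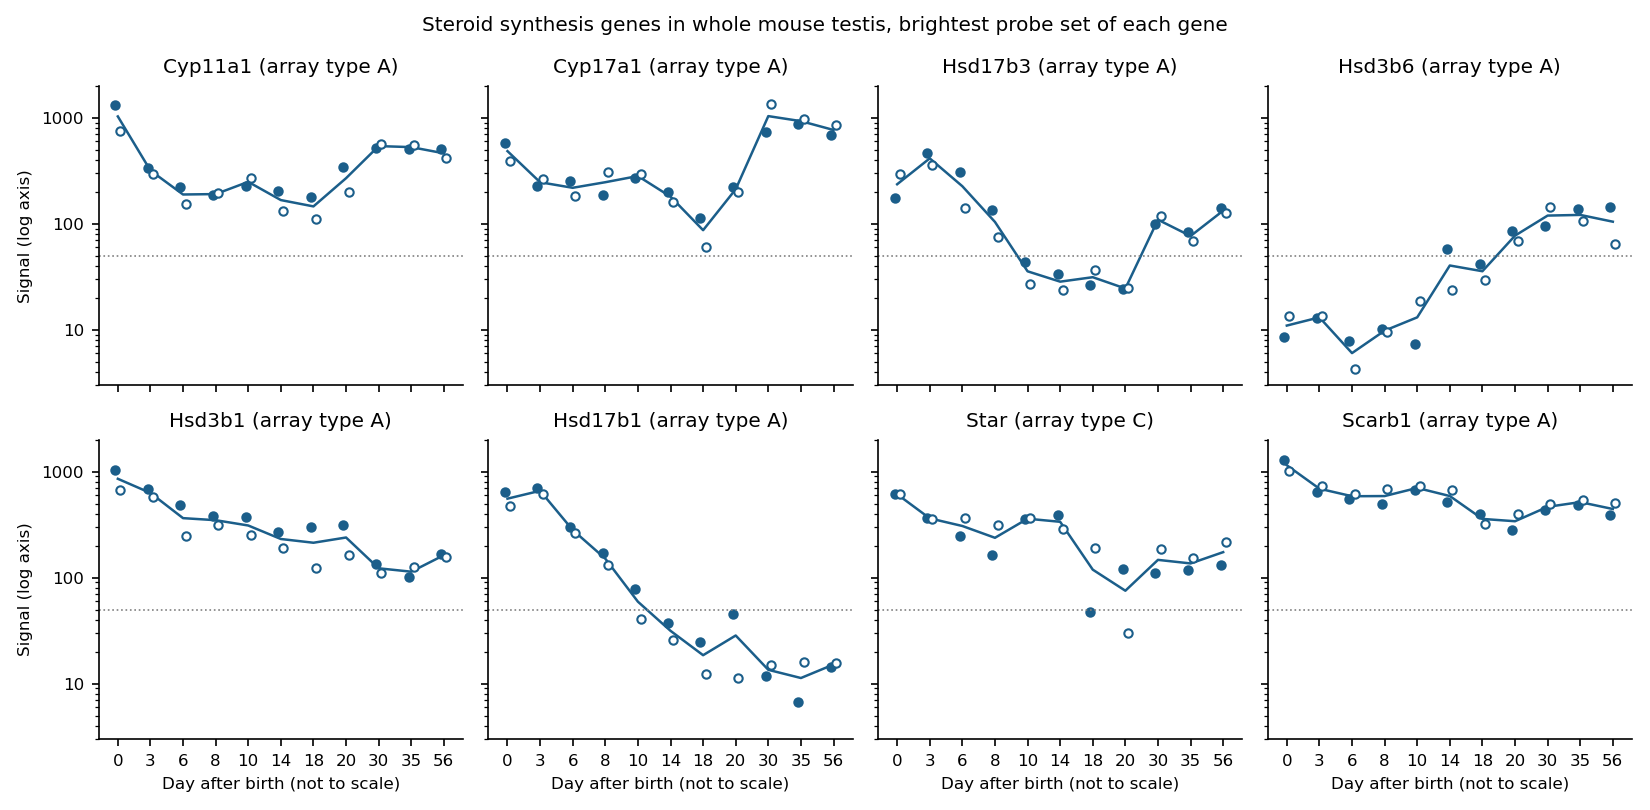
Array signal (log axis, scaled by the authors to a mean of 125) of the brightest probe set of each of the 8 measured genes against day after birth (ages evenly spaced, not to scale). Filled and open points are samples 1 and 2 of an age, the line joins their means, and the dotted line marks the signal of 50 used for filtering. The lowest mean is on day 18 for Cyp11a1 and Cyp17a1 and on day 20 for Hsd17b3, and these genes are higher at both ends. Hsd3b6 is low until day 10, and Hsd17b1 is at most 15.9 from day 30 on.

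Between stages, a probe set was called when its adjusted p was under 0.05 and its change was at least 2-fold, that is, at least 1 on the scale of log2(signal + 16). In infant against newborn testes, 0 of the 13 rose and 4 fell, against 1.4% higher and 1.19% lower among all probe sets tested. Those that fell were Cyp11a1, Hsd17b1, Hsd17b3 and 1 probe set of Hsd3b1. In juvenile against infant testes, 1 rose (Hsd3b6) and 3 fell (Hsd17b1, Hsd17b3 and a Star probe set), against 5.68% higher and 4.49% lower among all. In adult against juvenile testes, 4 rose (Cyp11a1, Cyp17a1, Hsd17b3 and Hsd3b6) and 0 fell, against 7.74% higher and 6.66% lower among all. In adult against newborn testes, 2 rose (Cyp17a1 and Hsd3b6) and 6 fell (Hsd17b1, Hsd17b3, both Hsd3b1 probe sets, and 1 probe set each of Star and Scarb1), against 14% higher and 19.9% lower among all. With each array scaled to its median, the calls among all probe sets were 3728 higher and 3310 lower in adult against newborn testes, in place of 3109 and 4419, 1968 and 1014 in place of 1718 and 1478 in adult against juvenile testes, and 1549 and 687 in place of 1260 and 997 in juvenile against infant testes. In day 56 against days 30 and 35, 0 of the 13 rose and 0 fell, against 0.018% higher and 0.0406% lower among all. In that comparison Scarb1 164289_f_at had the smallest unadjusted p (0.0197) of the 13, with an adjusted p of 0.354 by limma, and was the only one of them under 0.05 before adjustment.

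The median log2 change of the 13 was -0.58 in infant against newborn testes, beside 0.02 over all probe sets tested. It was -0.57 beside -0.11 in juvenile against infant testes, 0.16 beside -0.19 in adult against juvenile testes, and -0.89 beside -0.23 in adult against newborn testes. These medians give the probe sets of Star and Scarb1 more weight than the genes with a single probe set. The signals of adult and newborn samples did not overlap for 9 of the 13, beside 42.5% of all probe sets tested. This held for 3 beside 16.6% in adult against juvenile testes. It held for 1 beside 9.48% in juvenile against infant testes, and for 4 beside 7.45% in infant against newborn testes.

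**Figure D2:**
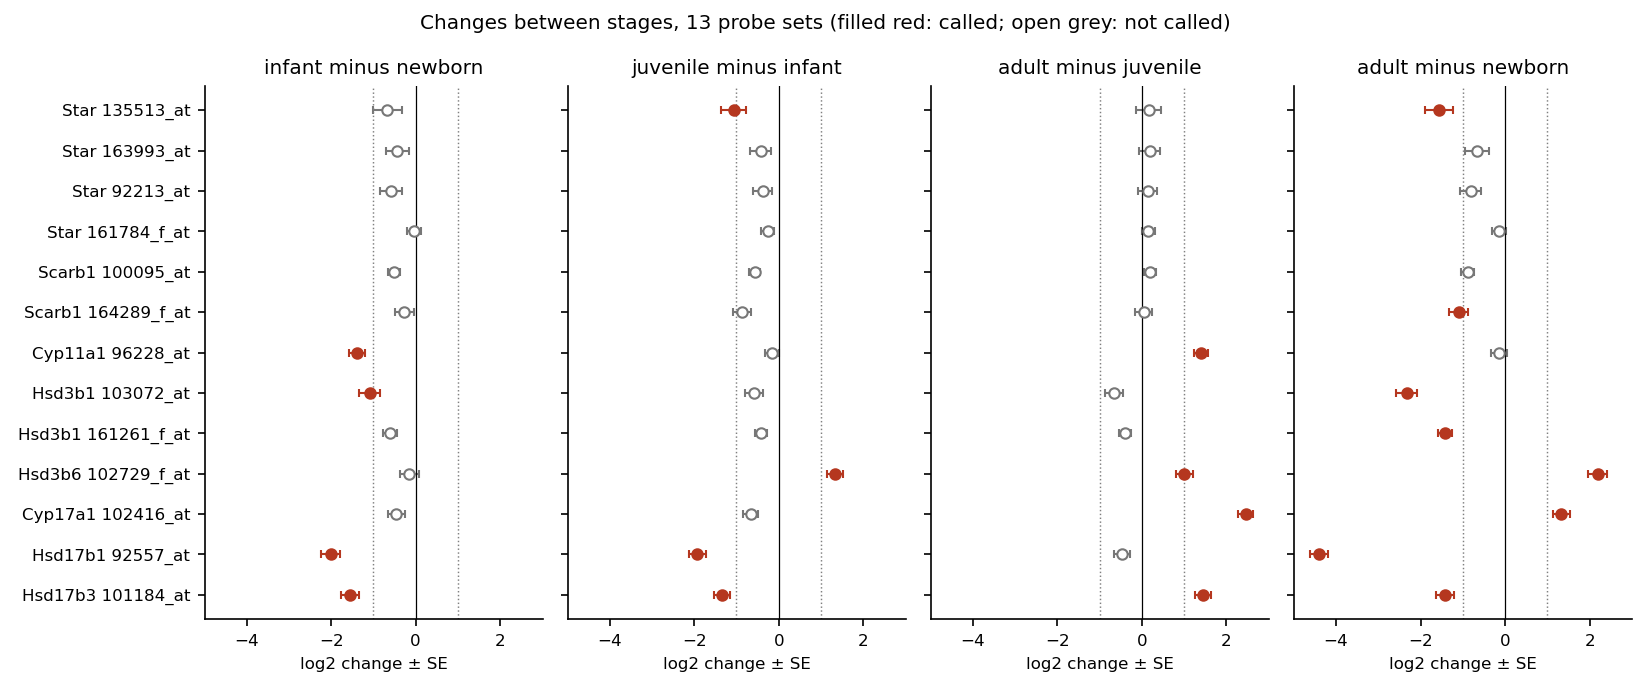
Log2 change of signal (signal + 16) between stages, with its standard error, for the 13 probe sets tested, 1 panel for each comparison, with the later stage minus the earlier. Filled red points passed the call rule, open grey points did not, and dotted lines mark a 2-fold change. Cyp11a1, Cyp17a1, Hsd17b3 and Hsd3b6 lie to the right of zero in adult minus juvenile, and Hsd17b1 has the lowest value in adult minus newborn (-4.41).

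Scarb1 codes for the scavenger receptor that takes up cholesteryl esters from high-density lipoprotein. Its probe set on the A array, 100095_at, had signals of 1280.9 and 1015.0 on day 0, 644.2 and 735.5 on day 3, 552.0 and 619.4 on day 6, 491.6 and 684.3 on day 8, and 664.1 and 738.9 on day 10. It had 511.7 and 664.7 on day 14, 398.4 and 317.4 on day 18, 279.9 and 400.7 on day 20, 435.1 and 495.4 on day 30, 488.2 and 542.8 on day 35, and 385.8 and 502.0 on day 56. Both day 0 samples stood above every later sample, and the lowest mean came on day 20. The adult signal averaged 475 ± 55.6 and the newborn 919 ± 288 (SD over samples of several ages, n = 6 and 4). All 6 adult samples lay below all 4 newborn ones, but the change of -0.89 ± 0.15 (log2 ± SE, adjusted p = 6.46e-05 by limma) was under 2-fold and was not called.

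The second Scarb1 probe set, 164289_f_at on the B array, was called lower in adult than in newborn testes. It had 187.2 and 337.9 on day 0, 149.0 and 112.5 on day 3, 41.1 to 80.4 over days 18 and 20, and 46.8 to 122 over the adult ages. The difference was -1.10 ± 0.23 (log2 ± SE, adjusted p = 0.000495 by limma), and the ranges of the stages overlapped, since sample 1 of day 56 (122.0) lay above sample 2 of day 3 (112.5). The call rested on the second day 0 sample: without it the change was -0.90. It was also lost under quantile normalization (-0.90), median scaling (-0.88) and a pseudocount of 64 in place of 16 (-0.81). The suffix _f in a probe set ID marks probes shared with related sequences, so its signal may hold more than Scarb1.

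Star codes for the protein that carries cholesterol to the inner mitochondrial membrane, the rate-limiting step of acute steroid synthesis. Its 4 probe sets did not behave alike. The brightest, 135513_at on the C array, had 615.4 and 608.3 on day 0, 366.4 and 358.2 on day 3, 249.4 and 364.3 on day 6, 162.2 and 312.9 on day 8, and 355.2 and 363.6 on day 10. It had 386.2 and 286.2 on day 14, 46.9 and 190.9 on day 18, 120.7 and 29.8 on day 20, 109.6 and 184.5 on day 30, 117.5 and 154.7 on day 35, and 130.6 and 217.2 on day 56. The day 0 samples were the highest, and on days 18 and 20 the samples of an age lay far apart.

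On that probe set Star fell by 1.57 ± 0.33 on the log2 scale in adult against newborn testes (± SE, adjusted p = 0.000656 by limma), with averages of 152 ± 41.9 and 487 ± 144 and no overlap. The fall of juvenile against infant testes, -1.07 ± 0.30 (adjusted p = 0.0120 by limma), lay near the 2-fold limit and was lost without the lower sample of day 18 (sample 1, -0.78) or of day 20 (sample 2, -0.80). It was also lost without sample 2 of day 6 (-0.98), of day 8 (-0.92) or of day 14 (-0.997), and under median scaling (-0.99) or a pseudocount of 64 (-0.79). No Star probe set was called in adult against juvenile testes, where the changes lay between 0.14 and 0.19 (log2).

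Of the other Star probe sets, 163993_at (B array) averaged 150 ± 33.9 in adult and 251 ± 69.1 in newborn testes, and 92213_at (A array) 86.2 ± 20.5 in adult and 165 ± 40.4 in newborn testes. Their adult minus newborn changes were -0.67 ± 0.28 (adjusted p = 0.0514 by limma) and -0.82 ± 0.25 (adjusted p = 0.0106 by limma), and neither was called. The fourth, 161784_f_at, stayed between 38.4 and 81.3 on all 22 arrays (-0.14 ± 0.17, log2 ± SE). Across the 22 samples the log2 signals of 135513_at correlated at r = 0.74 with 163993_at, 0.50 with 92213_at and 0.37 with 161784_f_at, as a description over arrays that share RNA by sample.

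**Figure D3:**
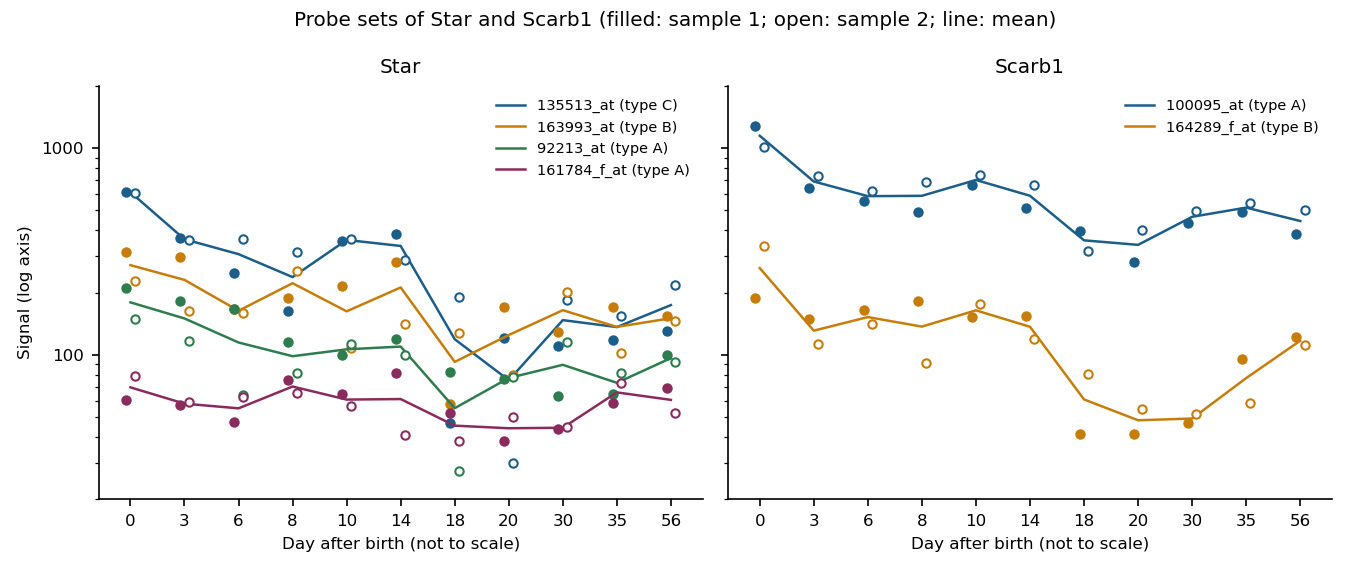
Signal (log axis) of the 4 Star probe sets (left) and 2 Scarb1 probe sets (right) against day after birth (ages not to scale). Filled and open points are samples 1 and 2 and lines join their means, 1 colour for each probe set. The Star set on the C array is highest on day 0 (615.4 and 608.3), while 161784_f_at stays between 38.4 and 81.3.

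Cyp11a1 codes for the side-chain cleavage enzyme, which makes pregnenolone from cholesterol and commits it to steroids. Its single probe set, 96228_at, had 1315.8 and 749.7 on day 0, 339.4 and 298.7 on day 3, 225.1 and 154.0 on day 6, 186.6 and 195.9 on day 8, and 230.0 and 268.8 on day 10. It had 204.7 and 131.1 on day 14, 181.1 and 111.6 on day 18, 340.7 and 199.4 on day 20, 522.8 and 562.0 on day 30, 504.3 and 556.2 on day 35, and 511.4 and 416.0 on day 56. The signal was thus high on day 0, low from day 6 to day 18, and high again from day 30, with the lowest mean (146) on day 18. The day 0 mean was 3.24 times that of day 3, so most of the newborn fall came within the newborn stage itself.

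Cyp11a1 fell in infant against newborn testes, where it averaged 210 ± 39.9 and 676 ± 473 (-1.38 ± 0.19, log2 ± SE, adjusted p = 0.000274 by limma), with no overlap. It rose in adult against juvenile testes, where it averaged 512 ± 52.6 and 195 ± 80.7 (1.40 ± 0.17, adjusted p = 6.49e-06 by limma), again with no overlap. No difference between adult and newborn testes passed the test (-0.14 ± 0.19, adjusted p = 0.552 by limma), and the adult samples, 416 to 562, lay inside the newborn range of 299 to 1316.

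The adrenal gland also makes steroids, and 4 of 6 listed adrenal cortex markers had a probe set. Their summed signal was 573.7 and 703.5 on day 0, against 391.6 to 534.3 over the other ages, none was at 0 and none was called in any comparison. Cyp21a1, the adrenal 21-hydroxylase, had 362.5 and 404.8 on day 0, the highest signals of its 22 arrays, and every other array was at 334.2 or lower. Cyp11b1 had 95.6 and 133.6 on day 0, with 133.6 its highest signal. Mrap and Mc2r were highest at other ages. Mrap had 67.4 and 64.9 on day 0 and up to 92.6 elsewhere, and Mc2r 48.2 and 100.2 and up to 107.9. The part of adrenal RNA in the day 0 signals was not tested.

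Hsd3b1 and Hsd3b6 code for 3-beta-hydroxysteroid dehydrogenases, which turn pregnenolone into progesterone. In the mouse Hsd3b1 is known in fetal and adult Leydig cells and Hsd3b6 in adult ones. The brighter Hsd3b1 probe set, 103072_at, had 1042.1 and 668.7 on day 0, 687.1 and 570.7 on day 3, 479.3 and 248.6 on day 6, 382.3 and 314.0 on day 8, and 369.6 and 250.8 on day 10. It had 271.2 and 191.6 on day 14, 303.3 and 123.3 on day 18, 314.1 and 163.9 on day 20, 133.4 and 111.5 on day 30, 100.5 and 127.0 on day 35, and 168.4 and 157.2 on day 56. The means were highest on day 0 and lowest on day 35, a ratio of 7.52, and sample 1 was higher than sample 2 at all 8 ages up to day 20.

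Hsd3b1 was 5.03-fold lower in adult than in newborn testes on the log2(signal + 16) scale (-2.33 ± 0.25, log2 ± SE, adjusted p = 3.15e-07 by limma), with averages of 133 ± 26.1 and 742 ± 206 and no overlap. The infant fall of -1.09 ± 0.25 (adjusted p = 0.0121 by limma) was lost without sample 1 of day 0 (-0.93) or of day 3 (-1.02, adjusted p = 0.0524), or without sample 2 of day 6 (-0.94) or of day 10 (-0.999), and with a pseudocount of 64 (-0.99). The second Hsd3b1 probe set, 161261_f_at, averaged 34.9 ± 7.16 in adult and 121 ± 23.0 in newborn testes (-1.42 ± 0.16, adjusted p = 8.91e-07 by limma), a call lost with a pseudocount of 64 (-0.89). The log2 signals of both sets correlated at r = 0.92 over the 22 A arrays.

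The single Hsd3b6 probe set, 102729_f_at, moved the other way. It had 8.6 and 13.4 on day 0, 12.9 and 13.4 on day 3, 7.8 and 4.3 on day 6, 10.2 and 9.5 on day 8, and 7.4 and 18.9 on day 10. It had 57.4 and 23.7 on day 14, 42.3 and 29.3 on day 18, 86.3 and 68.8 on day 20, 95.9 and 143.9 on day 30, 137.7 and 105.6 on day 35, and 145.0 and 65.0 on day 56. Every sample from day 14 on was above every sample up to day 10, and all signals up to day 10 were far below the level of 50 used for filtering.

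Hsd3b6 rose in juvenile against infant testes, where it averaged 51.3 ± 24.1 and 9.68 ± 4.96 (1.33 ± 0.20, log2 ± SE, adjusted p = 7.31e-05 by limma). It rose again in adult against juvenile testes (1.00 ± 0.20, adjusted p = 0.000664 by limma), a call at the 2-fold limit that was lost on leaving out 1 of 6 single samples, sample 2 of day 14, 18, 20 or 30 or sample 1 of day 35 or 56 (0.84 to 0.96). Adult testes averaged 116 ± 32.3 and newborn testes 12.1 ± 2.33, a change of 2.19 ± 0.22 (adjusted p = 2.08e-07 by limma). With a pseudocount of 64 in place of 16, the juvenile rise was 0.62 and the adult rise 0.64, and with a floor of 32 the juvenile rise was 0.63, all under the limit. The _f suffix applies here too, and the mouse holds several near-identical Hsd3b genes, so signal from other members of the family cannot be told apart from that of Hsd3b6.

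Hsd3b6 and Hsd3b1 are direct neighbours among the coding genes of mouse chromosome 3, with 0 coding genes between them, both on the minus strand (RefSeq, GRCm38.p6). The 250 bases before the start of each are shown because the probe sets of the neighbouring genes had opposite courses in these testes. Capitals mark every match to 6 short motifs searched on both strands: AGGTCA, TCAAGGNNA and CCAAGGNNA (bound by nuclear receptors of the NR5A kind), GATAA (GATA factors), TATAAA and CCAAT.
Hsd3b1, chr3:98859795-98860044, minus strand: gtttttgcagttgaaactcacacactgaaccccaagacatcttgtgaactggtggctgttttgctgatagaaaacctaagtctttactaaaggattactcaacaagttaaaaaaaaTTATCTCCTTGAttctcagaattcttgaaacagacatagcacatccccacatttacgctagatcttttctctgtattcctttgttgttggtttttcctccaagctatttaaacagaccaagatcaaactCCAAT
Hsd3b6, chr3:98814444-98814693, minus strand: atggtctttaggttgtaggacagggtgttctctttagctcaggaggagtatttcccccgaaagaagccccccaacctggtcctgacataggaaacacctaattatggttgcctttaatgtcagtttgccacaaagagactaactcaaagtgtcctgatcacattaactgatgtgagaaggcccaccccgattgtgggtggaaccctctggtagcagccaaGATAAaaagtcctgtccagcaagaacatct
The Hsd3b1 stretch held TCAAGGNNA on the strand opposite to the one printed, overlapping by 2 bases a GATAA on that opposite strand, and CCAAT in its last 5 bases. The Hsd3b6 stretch held 1 GATAA, 30 bases before the start. Of 32851 mouse promoter windows of 250 bases, 3.83% held TCAAGGNNA, 22.6% GATAA and 33.8% CCAAT, while the motifs not found in either stretch were in 14% (AGGTCA), 5.4% (CCAAGGNNA) and 12.4% (TATAAA). These matches describe letters only.

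Within each sample, the log2 signal of the Hsd3b6 probe set minus that of Hsd3b1 gave their relative change without setting their levels against each other. Other Hsd3b genes may add to the Hsd3b6 signal, as said above. The difference lay between -1.10 and 0.40 in adult samples, against -5.43 to -4.32 in newborn samples. Infant samples lay between -4.38 and -2.93 and juvenile samples between -2.45 and -1.09, so juvenile values were above all infant ones. Relative to Hsd3b1, Hsd3b6 was higher in adult than in newborn testes by 4.52 on the log2(signal + 16) scale, in 6 of 6 adult samples (n = 6 and 4). The newborn Hsd3b6 signals, 8.6 to 13.4, lay under 50, and with other settings this difference lay between 3.23 and 5.58. A two-sided exact permutation test over the samples gave p = 0.0047619, unchanged by adjustment over the 2 such relations tested and the smallest p that 210 regroupings allow. Each probe set had already separated these stages, in opposite directions, so this p was fixed beforehand and adds no support to the calls. The test also regrouped samples of different ages as if they were alike.

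**Figure D4:**
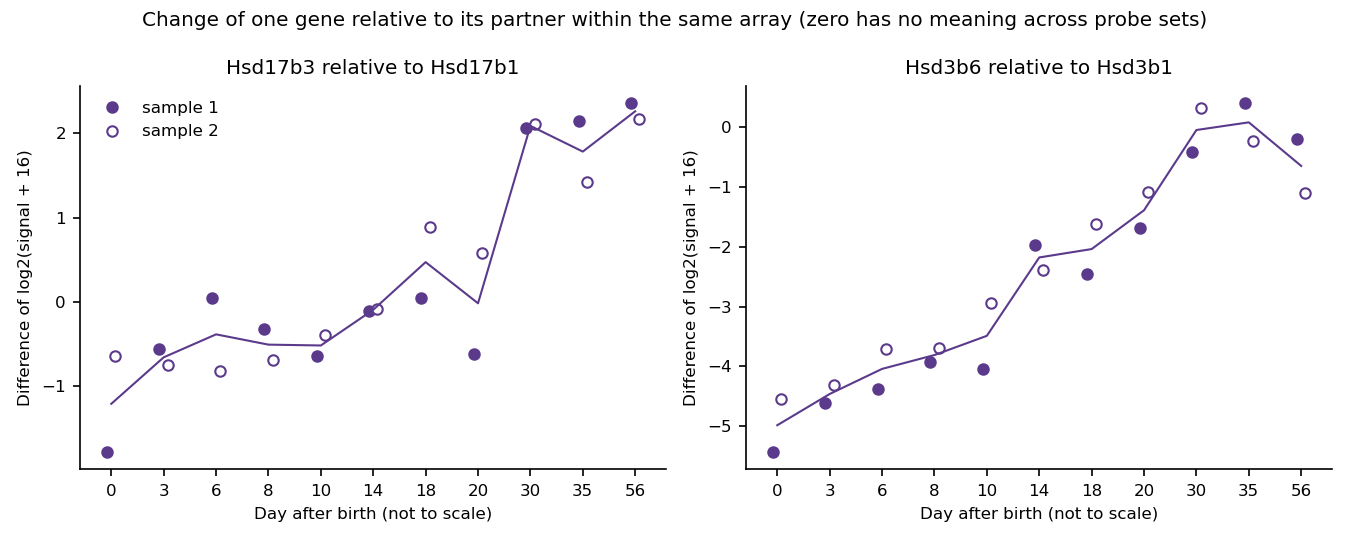
Per-sample difference of log2(signal + 16) between the genes of a pair on the same array, against day after birth (ages not to scale), for Hsd17b3 minus Hsd17b1 (left) and Hsd3b6 minus Hsd3b1 (right). Filled and open points are samples 1 and 2 and the line joins their means, and zero carries no meaning because the probe sets differ. On the right the adult samples lie between -1.10 and 0.40 and the newborn between -5.43 and -4.32, and on the left between 1.42 and 2.35 and between -1.77 and -0.56.

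Cyp17a1 codes for the 17-alpha-hydroxylase and 17,20-lyase that makes the first androgens of the pathway. Its measured probe set, 102416_at, had 580.4 and 391.6 on day 0, 226.9 and 267.8 on day 3, 253.5 and 184.9 on day 6, 186.0 and 308.9 on day 8, and 270.1 and 296.0 on day 10. It had 199.4 and 162.6 on day 14, 113.4 and 61.2 on day 18, 224.2 and 200.9 on day 20, 736.1 and 1343.6 on day 30, 882.5 and 982.7 on day 35, and 686.4 and 853.0 on day 56. Every adult sample was above every younger one. The mean was lowest on day 18 (87.3) and highest on day 30 (1040), a ratio of 11.9.

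Cyp17a1 rose 5.51-fold in adult against juvenile testes on the log2(signal + 16) scale, where it averaged 914 ± 236 and 160 ± 62.1 (2.46 ± 0.18, log2 ± SE, adjusted p = 6.96e-09 by limma). It was 2.52-fold higher in adult than in newborn testes (1.34 ± 0.20, adjusted p = 1.87e-05 by limma). The decline before it was smaller. The juvenile minus infant change was -0.66 ± 0.18 (adjusted p = 0.00919 by limma), under 2-fold and so not called, and the infant minus newborn change of -0.46 ± 0.20 had an adjusted p of 0.205. The second probe set, 161721_f_at, was too dim to be tested, with 5.3 to 29.6 in adult testes, 0.5 to 3.8 in juvenile, 0.6 to 13.2 in infant and 1.1 to 12.9 in newborn testes.

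The last step has a pair of enzymes here. Hsd17b3 codes for the testicular 17-beta-hydroxysteroid dehydrogenase that makes testosterone from androstenedione, and Hsd17b1 for one best known for making estradiol in the ovary. In the fetal mouse testis both are found in Sertoli cells. Hsd17b1, on 92557_at, had 638.0 and 473.3 on day 0, 699.0 and 619.5 on day 3, 300.4 and 262.6 on day 6, 171.3 and 130.6 on day 8, and 77.9 and 40.7 on day 10. It had 37.1 and 25.9 on day 14, 24.8 and 12.3 on day 18, 45.6 and 11.3 on day 20, 11.9 and 15.1 on day 30, 6.7 and 15.9 on day 35, and 14.5 and 15.8 on day 56. The signal fell at each age from day 3 to day 18 with no overlap between neighbouring ages, and stayed low after that. The signals of day 35, the age with the lowest mean, lay far under the 50 used for filtering. As for Hsd3b1 103072_at, sample 1 was higher than sample 2 at all 8 ages up to day 20.

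Hsd17b1 was lower in adult than in newborn testes, with averages of 13.3 ± 3.56 and 607 ± 95.7 (-4.41 ± 0.22, log2 ± SE, adjusted p = 1.91e-11 by limma). All its adult signals lay under 50, so the size of this change rests on the pseudocount, and with other settings it lay between -5.44 and -3.11. The infant minus newborn change was -2.01 ± 0.22 and the juvenile minus infant change -1.92 ± 0.20 (adjusted p = 2.67e-05 and 1.02e-06 by limma), both falls. Adult against juvenile testes changed by -0.47 ± 0.20 (adjusted p = 0.0659 by limma). The summed signal of the 15 Sertoli markers was 13045 to 15880 in infant testes, against 9818 to 13131 in newborn testes. Of these markers 2 rose (Cldn11 and Gata1) and 1 fell (Amh) in infant against newborn testes, and 3 rose and 7 fell in adult against newborn testes. The median log2 change of the 15 markers was 0.16 in infant against newborn and -0.85 in adult against newborn testes. Picked from among them, Inha and Inhbb, inhibin subunits of Sertoli cells, changed by -0.58 and -0.62 (log2) in infant against newborn testes, neither of them called. In adult against newborn testes they changed by -2.30 and -2.41, both called. The part of Sertoli cells in the Hsd17b1 signal was not tested.

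Hsd17b3, on 101184_at, had 175.3 and 298.2 on day 0, 469.1 and 361.7 on day 3, 310.9 and 142.6 on day 6, 133.9 and 75.0 on day 8, and 44.1 and 27.4 on day 10. It had 33.5 and 23.6 on day 14, 26.3 and 36.6 on day 18, 24.3 and 24.9 on day 20, 100.5 and 118.7 on day 30, 84.4 and 69.5 on day 35, and 140.0 and 126.9 on day 56. Like that of Hsd17b1, whose samples of days 0 and 3 overlapped, its mean was highest on day 3 and fell to day 14. Unlike Hsd17b1 it rose again from day 30, but its adult signals (69.5 to 140.0) stayed below the newborn ones (175.3 to 469.1). The mean was lowest on day 20 (24.6), where both signals lay under 50.

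Hsd17b3 fell in infant against newborn testes (-1.55 ± 0.21, log2 ± SE, adjusted p = 0.000223 by limma) and in juvenile against infant testes (-1.33 ± 0.19, adjusted p = 4.33e-05 by limma). It rose in adult against juvenile testes, where it averaged 107 ± 26.8 and 28.2 ± 5.47 with no overlap (1.45 ± 0.19, adjusted p = 1.19e-05 by limma). The adult signal was still below the newborn one, 326 ± 123, in every sample (-1.43 ± 0.21, adjusted p = 1.82e-05 by limma). With a pseudocount of 64 the juvenile fall was -0.85 and the adult rise 0.88, both under 2-fold.

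Within each sample, the log2 signal of Hsd17b3 minus that of Hsd17b1 was 1.42 to 2.35 in adult testes, against -1.77 to -0.56 in newborn testes. It was between -0.81 and 0.05 in infant testes and between -0.61 and 0.89 in juvenile testes, which overlapped. Relative to Hsd17b1, Hsd17b3 was higher in adult than in newborn testes by 2.98 on the log2(signal + 16) scale (6 of 6 adult samples, n = 6 and 4). The two-sided exact permutation test gave p = 0.0047619 before and after adjustment over the 2 relations. This is the smallest p that 210 regroupings allow. Hsd17b1 had fallen by more than Hsd17b3 between these stages (-4.41 against -1.43), so this p was fixed beforehand and adds no support to the calls. The Hsd17b1 signal was near the bottom of the scale in adult testes, and with other settings this difference lay between 1.96 and 3.89.

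Ages next to each other in the order of the mean signal were often not separated by their samples. Ordered from high to low, the 11 ages of a probe set form 10 neighbouring pairs. Both samples of one age lay above both samples of the next lower age in 5 of these pairs for Cyp17a1, 4 each for Hsd17b1 and Hsd17b3, 3 each for Cyp11a1 and Hsd3b6, 2 for each Scarb1 probe set and for Hsd3b1 103072_at, and 1 each for Hsd3b1 161261_f_at and Star 135513_at. For the other 3 Star probe sets it was 0.

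Genes with the most similar courses were found by Pearson correlation of log2 signals over the 22 arrays of a type. The search covered the genes tested there, leaving out the steroid genes themselves and loci with clone names. These arrays share samples, ages and scaling, so the values are a description. Those closest to Hsd17b1 were Agtr2 (r = 0.98), the type 2 angiotensin receptor, Vcan (0.97), the matrix proteoglycan versican, and Idh2 (0.96), a mitochondrial dehydrogenase. Hsd3b1 was closest to Kdelr2 (0.96), Pccb (0.95) and Mdp1 (0.95), and Hsd3b6 to Kif9, Saysd1 and Dnajc15 (0.93 each). Cyp17a1 was closest to Ap2a2 (0.91), Csnk1g2 (0.90) and Lipe (0.89), the hormone-sensitive lipase that frees stored cholesterol. Cyp11a1 was closest to Apoc1 (0.86), an apolipoprotein gene, Tmem176a (0.81) and Tinagl1 (0.81), and Hsd17b3 to Pla2g5 (0.89), Fbn2 (0.86) and Clca3a1 (0.85). Scarb1 was closest to Fads1 (0.90), Glb1 (0.90) and Ifnar2 (0.89), and Star on the C array to Sh2b2 (0.90), Peg12 (0.84) and Tspan18 (0.82). Among the steroid genes themselves, Hsd3b1 and Hsd17b1 correlated at r = 0.91, Cyp11a1 and Cyp17a1 at 0.80, and Hsd3b6 and Hsd17b1 at -0.78.

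Of 27 other steroid enzymes listed, 21 had a probe set and 14 entered the fit. In adult against newborn testes 0 of the 14 rose and 3 fell: Hsd17b10 (-2.05 ± 0.32, log2 ± SE), a mitochondrial dehydrogenase, Hsd17b12 (-1.42 ± 0.15), which also elongates fatty acids, and Hsd17b11 (-1.27 ± 0.14), whose call was lost with a pseudocount of 64 (-0.95). Among all probe sets, 14% were called higher and 19.9% lower in that comparison. The adjusted p-values of these enzymes by limma were 3.28e-05, 3.92e-07 and 5.11e-07. In adult against juvenile testes 1 rose, Sult1e1, the estrogen sulfotransferase, with 95.4 to 163 in adult testes, against 26.6 to 58.3 in juvenile testes (1.34 ± 0.27, adjusted p = 0.000624 by limma), a call lost with a pseudocount of 64 (0.86). The median change of the 14 was -0.33 in adult against newborn testes. Infant against newborn and juvenile against infant testes had 0 calls in this list.

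The list of electron donors and cholesterol supply genes had 15 of its 20 genes in the fit, of which 1 rose and 4 fell in adult against newborn testes (median -0.62), beside 14% higher and 19.9% lower among all probe sets. The one that rose was Lipe, with 184 to 332 in adult testes, against 26.9 to 41.4 in newborn and 5.8 to 31.2 in juvenile testes. Its change was 3.30 ± 0.18 in adult against juvenile testes (log2 ± SE, adjusted p = 1.24e-10 by limma). Lipe has a testis form known from haploid germ cells of rodents, and the summed spermatid markers were higher in the same adult samples, whose part in the Lipe signal was not tested. Of those that fell, Cyb5b, an outer mitochondrial cytochrome b5, changed by -1.48 ± 0.15 and Osbpl2, an oxysterol-binding protein, by -1.39 ± 0.21 (adjusted p = 1.98e-07 and 1.55e-05 by limma). Acbd3 was called lower in adult against juvenile testes (-1.26 ± 0.41, adjusted p = 0.0204 by limma), a call lost without any 1 of 5 samples. With median scaling, 2 in place of 4 genes of this list fell in adult against newborn testes.

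Of 33 listed regulators of Leydig cells and of luteinizing hormone signalling, 29 entered the fit. In adult against newborn testes 1 rose and 21 fell, with a median change of -1.59, beside the same 14% and 19.9% among all, and in juvenile against infant testes 2 rose and 13 fell (median -0.96), beside 5.68% and 4.49% among all. The largest falls were those of Prkar2b (-3.63 ± 0.27, log2 ± SE), a regulatory subunit of protein kinase A, Nr2f2 (-3.51 ± 0.24) and Tcf21 (-3.51 ± 0.14), transcription factors of interstitial cells and their precursors, and Igf1 (-3.44 ± 0.21), an insulin-like growth factor. Their adjusted p-values by limma were 2.25e-09, 1.08e-09, 9.16e-13 and 1.32e-10. Picked after their values were seen, Nr5a1, a nuclear receptor that activates many genes of the pathway, had 318 to 664 in adult testes, against 798 to 1245 in newborn testes (-1.08 ± 0.16, adjusted p = 2.35e-05 by limma), and Nr1h3, the sterol-sensing receptor LXR alpha, was the one that rose, with 82.8 to 135 against 5.2 to 20.9 (2.28 ± 0.26, adjusted p = 7.54e-07 by limma). Other somatic cells of the testis express many genes of this list, and Dhh also stands among the 15 Sertoli markers. The summed signal of 6 endothelial markers was 147 to 284 in adult testes, against 913 to 2038 in newborn testes, and that of 6 peritubular and smooth muscle markers 1612 to 2361, against 1898 to 3400. Within the peritubular and smooth muscle list Actg2 rose in adult against newborn testes (2.47), while Acta2 (-2.50), Tagln (-1.96) and Myh11 (-1.65) fell. That of 8 macrophage markers was 598 to 686 in adult testes, against 619 to 914 in newborn testes. The part of these cells in the falls was not tested.

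Of 6 listed fetal Leydig markers 5 entered the fit. In adult against newborn testes 0 rose and 1 fell, beside 14% higher and 19.9% lower among all probe sets, and without suffixed probe sets 2 of 4 fell. The 1 called in the main fit was Dlk1, a membrane protein of fetal and precursor cells. It had 81.1 to 119 in adult testes, against 2262 to 4365 in newborn testes (-4.86 ± 0.22, log2 ± SE, adjusted p = 5.74e-12 by limma). Of 10 listed adult Leydig markers 7 entered the fit, and 2 rose and 0 fell in adult against newborn testes, beside the same 14% and 19.9% among all. Ephx1, the microsomal epoxide hydrolase, had 132 to 275 in adult testes, against 11.5 to 96.3 in newborn testes (2.48 ± 0.37, adjusted p = 1.98e-05 by limma). Vcam1, an adhesion molecule, had 122 to 189 in adult testes, against 38.2 to 97.3 in newborn testes (1.05 ± 0.19, adjusted p = 0.000127 by limma), a call lost without sample 1 of day 56 (0.96) or with a pseudocount of 64 (0.72). Other genes of the adult list were not called in that comparison. Sult1e1, which stands in this list too, had 95.4 to 163 in adult testes, against 27.0 to 177 in newborn testes. It was called higher in adult against juvenile testes, as given above. Gsta2, not called, had 159 to 187 in adult testes, against 291 to 472 in newborn testes. Ptgds averaged 483 in adult and 488 in newborn testes, and Akr1c14 50.6 and 59.8. Insl3, the peptide hormone that marks fetal and adult Leydig cells and stands in both lists, had a single probe set, with signals of 26.9 to 77.3 on all arrays and no call in any comparison.

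**Figure D5:**
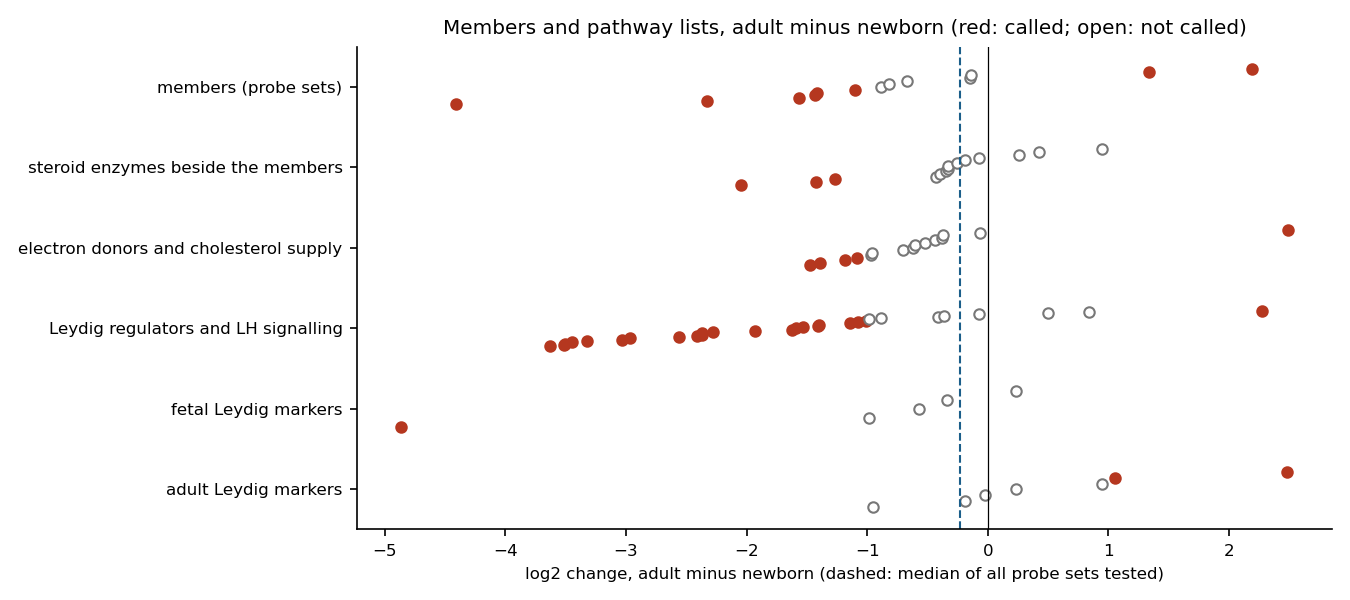
Log2 change of signal (signal + 16) in adult minus newborn testes, 1 point for each of the 13 probe sets of the steroid genes (top row) and for each gene of the 5 lists that entered the fit. Red points passed the call rule, open points did not, and the dashed line is the median of all 22191 probe sets tested (-0.23). Hsd17b1 (-4.41) is the lowest point of the top row, Hsd3b6 (2.19) the highest, and 21 of the 29 regulators lie below -1 with a call.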

How the data were processed

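Signal intensities were used as deposited in the series' value tables. Per the labels, total testis RNA was isolated with TRIzol and the authors scaled the signal intensity of each array to a mean of 125, and the mean of every array without its top and bottom 2% of values was 125.02 to 125.1. The signal software is not given in the sources used here. Probe sets were named from the platform annotation: 29131 of 36899 named 1 gene, 724 several and 6846 none, and 198 were controls. Of those naming 1 gene, 29044 matched a RefSeq gene (GRCm38.p6). Depth has no meaning for arrays, and 2 samples an age limit the precision.

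The deposited intensities were turned to log2(signal + 16), and fold changes are on that scale, which understates changes of dim probe sets. Probe sets naming 1 gene entered the fit if 2 or more of their 22 arrays had signals of 50 or above (22191, for 13472 genes). limma 3.58.1 in R 4.3.3 was run separately on A, B and C arrays (11 age means, eBayes with a variance trend), stages were means of age means, and p-values were adjusted by Benjamini-Hochberg over all 22191. Two-sided exact permutation tests compared 2 pairs of genes on the same arrays. The fit was tested on simulated data with known changes. Levels of different probe sets were not compared. Genes named from the lists were up to 4 with the largest called change in any stage comparison. For likeness they were the 3 non-member genes of highest correlation, loci with clone names left out. The genes and lists were chosen with earlier results of these data known. The planned relation of Hsd17b3 to Srd5a1 was not analysed here, since no probe set named Srd5a1. Promoter sequences are from RefSeq (GRCm38.p6), where 6 of the 10 genes had an entry. Alternatives were other pseudocounts, a floor, other filters and scalings, no variance trend, 1 probe set a gene, no suffixed probe sets, the sample number as a block, and leaving out each sample.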

Additional observations from a re-analysis of the deposited data

How the results depend on the processing

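The number of steroid gene probe sets called stayed within 1.5 times the reported value under most settings. With a pseudocount of 64 it was 1 in place of 4 in juvenile against infant and 2 in place of 4 in adult against juvenile testes. Without suffixed probe sets it was 5 in place of 8 in adult against newborn testes, with 9 probe sets tested. Leaving out 1 sample at a time gave 10 to 11 over the 11 days, 3 to 4 in infant against newborn, juvenile against infant and adult against juvenile testes, 7 to 8 in adult against newborn testes and 0 on day 56. It gave 4.29 to 4.70 for Hsd3b6 relative to Hsd3b1 and 2.69 to 3.10 for Hsd17b3 relative to Hsd17b1, and the other settings gave 3.23 to 5.58 and 1.96 to 3.89. The highest adjusted p with a sample left out was 0.0119 in the exact permutation test. That is the smallest p the regroupings allow with a newborn sample left out, so it adds no support. Relations without suffixed probe sets were not run, since Hsd3b6 has only a suffixed one. Of the single changes of the 13 probe sets, no called one turned direction. Some uncalled changes near zero changed sign under other settings, such as that of Cyp11a1 in adult against newborn testes (-0.14 as reported, up to 0.03). Under other settings 12 changes lost and 2 gained a call, and 16 lost and 1 gained one when a sample was left out. With the sample number as a replicate block the counts were 10, 4, 4, 4, 8 and 0, as without it, and the relations were 4.52 and 2.98 (exact permutation within numbers, adjusted p = 0.01). That p, too, is the smallest such regroupings allow. Differences between same-age samples correlated above 0.1 in 28, 31 and 22 of 55 pairs of ages on types A, B and C, and in 26, 24 and 22 of the 28 pairs up to day 20 (medians 0.28, 0.22 and 0.14). Not every pair was above 0.1, and the main fit did not pair samples by number. Whether samples of the same number shared a source up to day 20 was not tested, and the block setting above gives the counts with the number included. Among all probe sets, a pseudocount of 64 gave 124 higher and 98 lower in infant against newborn testes (reported 311 and 263), 834 and 355 in juvenile against infant testes (1260 and 997), and 459 lower in adult against juvenile (1478) and 2453 lower in adult against newborn testes (4419). A pseudocount of 1 gave 1565 and 2501 lower in juvenile against infant and adult against juvenile testes. Of the lists, a pseudocount of 64 gave 6 regulators called in place of 15 in juvenile against infant testes, and a pseudocount of 1 gave 3 adult Leydig markers higher and 1 lower, in place of 2 higher, in adult against newborn testes. With 1 probe set a gene, 2859 fell in adult against newborn testes. On day 56 the calls ranged from 0 to 26 higher and 0 to 81 lower over all settings (4 and 9 reported). The median change of all probe sets in adult against newborn testes was -0.01 with median scaling and -0.10 with quantile normalization, in place of -0.23, and with median scaling it was 0.01 in place of -0.11 in juvenile against infant and -0.07 in place of -0.19 in adult against juvenile testes.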
